A study of Mus musculus with 18 samples.

Results

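The genes studied here code for proteins of the sarcomere and its Z-disc, and were followed as RNA polymerase II (Pol II) and CTCF occupancy in chromatin of mouse heart. The list held 32 genes, chosen by name, and each gene was represented by its annotated promoter peak with the highest Pol II value summed over the 6 Pol II libraries. Of the 32 genes, 29 had such a peak among 13979 genes with a promoter peak, and 38260 of the 101256 regions in the table were annotated to a promoter. The promoter peaks of 28 genes passed the filter on low Pol II values. The peak of Nebl, whose product nebulette sits in the cardiac Z-disc, did not pass, with values of 10 and 7 (WT), 8 and 4 (Trdn-as KO) and 7 and 3 (Mettl3 KO). Outside this peak, 7 regions inside Nebl summed to Pol II values of 109 and 128, 136 and 131, and 126 and 126 in the same order. Xirp2, Myom1 and Cryab had no region annotated to their promoter in the table.

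The chromatin came from ventricles of adult C57BL/6 mice, prepared from 2 hearts, and was immunoprecipitated with antibodies against Pol II, against CTCF, a DNA-binding protein of insulators and chromatin loops, or with IgG as background. WT hearts were compared with Trdn-as KO hearts, in which a homozygous polyA cassette in the first exon of the antisense gene Trdn-as stops its transcription in all cells, and with Mettl3 KO hearts. The latter had the genotype Mettl3lox/lox:alphaMHC-MerCreMerpos, in which tamoxifen induces deletion of the m6A methyltransferase gene Mettl3 in cardiomyocytes, while the other cells of the heart keep it. The labels call the controls WT and do not give their age, sex or tamoxifen treatment. The study's methods also name tamoxifen-treated Mettl3lox/lox mice without the Cre as controls, and whether the WT libraries came from such mice is not given in the sources used here, so that the deletion, the Cre and tamoxifen cannot be told apart in Mettl3 KO against WT. Each genotype had 2 libraries for Pol II, 2 for CTCF and 1 for IgG, and nothing states that the 2 libraries of a group came from separate hearts, so that p-values measure the spread between libraries, which may be technical.

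The deposited values are read counts divided by a DESeq2 size factor per library and rounded, and are called Pol II or CTCF values here. The Pol II libraries held an estimated 1987581 to 4953953 reads in the regions, and the share of uniquely mapped reads in the regions was 18.6% in Trdn-as KO replicate 2 against 35.5% to 42.6% in the other 5. The targeted Trdn-as promoter had Pol II values of 530 and 595 (WT), 140 and 100 (Trdn-as KO) and 503 and 491 (Mettl3 KO). The promoter of Mettl3, which the cardiomyocyte deletion need not touch, had values of 177 and 202 (WT), 203 and 161 (Trdn-as KO) and 240 and 235 (Mettl3 KO). Both Trdn-as KO libraries had a summed value of 0 over the 6 regions on chromosome Y, against 223 to 326 in the other 4 libraries, so that genotype and sex cannot be told apart for that group.

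A sarcomere is the contractile unit of striated muscle, in which thin filaments of actin, tropomyosin and troponin slide along thick filaments of myosin. The thin filaments are anchored in Z-discs by alpha-actinin, titin spans from the Z-disc to the M-band, and desmin filaments tie neighbouring Z-discs together. In heart muscle the genes of these proteins are among the most highly transcribed, and variants in many of them are known causes of cardiomyopathy. Their promoters are known targets of MEF2 factors and of serum response factor, which binds the CArG box.

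Promoter sequences were matched in RefSeq for 28 of the 32 genes, and the 250 bases before the start were searched on both strands for 6 motifs. A CArG box (CC, 6 bases of A or T, GG) was found in 5 of the 28 genes (17.9%), namely Actc1, Myl3, Ldb3, Myom1 and Fhl2, against 1.41% of 27025 genes. The MEF2 site (CTA or TTA, 4 bases of A or T, TAG or TAA) was found in 7 genes (25.0%), namely Ttn, Mybpc3, Myoz2, Xirp2, Fhl2, Synpo2l and Speg, against 3.03% of all genes. The MCAT element CATTCC was found in 6 (21.4%, all genes 12.6%), the GATA element AGATAA in 5 (17.9%, all genes 10.2%) and the TATA box TATAAA in 2 (7.14%, all genes 13.0%). The core of the CTCF motif was found in none of the 28, against 1.29% of all genes. In Fhl2 the TATA box lies inside the MEF2 site. The shares describe letters in these windows only.

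The following sequences are the RefSeq GRCm38.p6 bases upstream of 4 genes, written in the direction of transcription with capitals at the motifs found. Actc1 (chr2:114052876-114053125 on the minus strand) shows a CArG box, Ttn (chr2:76982548-76982797 on the minus strand) a MEF2 site, Ldb3 (chr14:34588682-34588931 on the minus strand) a CArG box, and Mypn (chr10:63203953-63204202 on the minus strand) an MCAT element and a TATA box, both on the opposite strand. Actc1 had the second highest mean promoter value of the genes on the list, and Ttn, Ldb3 and Mypn are the genes whose Pol II inside the gene differed in Mettl3 KO hearts.
Actc1: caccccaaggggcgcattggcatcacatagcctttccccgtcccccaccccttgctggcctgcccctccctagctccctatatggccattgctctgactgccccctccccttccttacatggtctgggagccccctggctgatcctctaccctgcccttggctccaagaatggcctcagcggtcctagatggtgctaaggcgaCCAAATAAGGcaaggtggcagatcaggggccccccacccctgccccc
Ttn: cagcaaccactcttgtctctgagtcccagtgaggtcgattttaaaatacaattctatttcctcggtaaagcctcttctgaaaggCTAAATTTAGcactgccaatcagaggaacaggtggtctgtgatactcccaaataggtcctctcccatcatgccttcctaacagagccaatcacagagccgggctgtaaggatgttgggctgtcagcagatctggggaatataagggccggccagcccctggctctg
Ldb3: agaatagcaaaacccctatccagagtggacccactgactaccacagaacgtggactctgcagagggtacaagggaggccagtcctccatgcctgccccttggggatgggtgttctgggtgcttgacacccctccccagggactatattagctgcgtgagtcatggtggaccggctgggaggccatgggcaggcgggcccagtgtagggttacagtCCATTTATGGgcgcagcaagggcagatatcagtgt
Mypn: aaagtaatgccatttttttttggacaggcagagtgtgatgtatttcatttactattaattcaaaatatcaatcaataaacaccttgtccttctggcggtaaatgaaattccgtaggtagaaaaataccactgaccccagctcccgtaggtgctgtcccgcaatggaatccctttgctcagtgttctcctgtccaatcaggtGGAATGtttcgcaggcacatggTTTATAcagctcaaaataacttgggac

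Sarcomere and Z-disc genes carried more Pol II at their promoter regions than most genes of the heart. The median of the mean Pol II value was 889 over the 28 genes and 198 over the 12343 genes that passed the filter, and 10 of the 28 were among the 100 genes with the highest values. These regions were also longer, and the median region was 4499.5 nt long for the 28 genes and 1236 nt for all genes passing. Per kilobase the medians were 180 and 149, and 21 of the 28 genes lay above the median of all genes. The Pol II signal in RPM (reads scaled by the mapped reads of a library) exceeded the IgG signal more than 2-fold in 28 of 28 genes in each genotype, with median ratios of 20.8 in WT, 13.3 in Trdn-as KO and 17.1 in Mettl3 KO against 13.4, 8.20 and 11.7 over all genes. Because the samples are whole ventricles, fewer cells of a type and less signal per cell cannot be told apart.

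**Figure D1:**
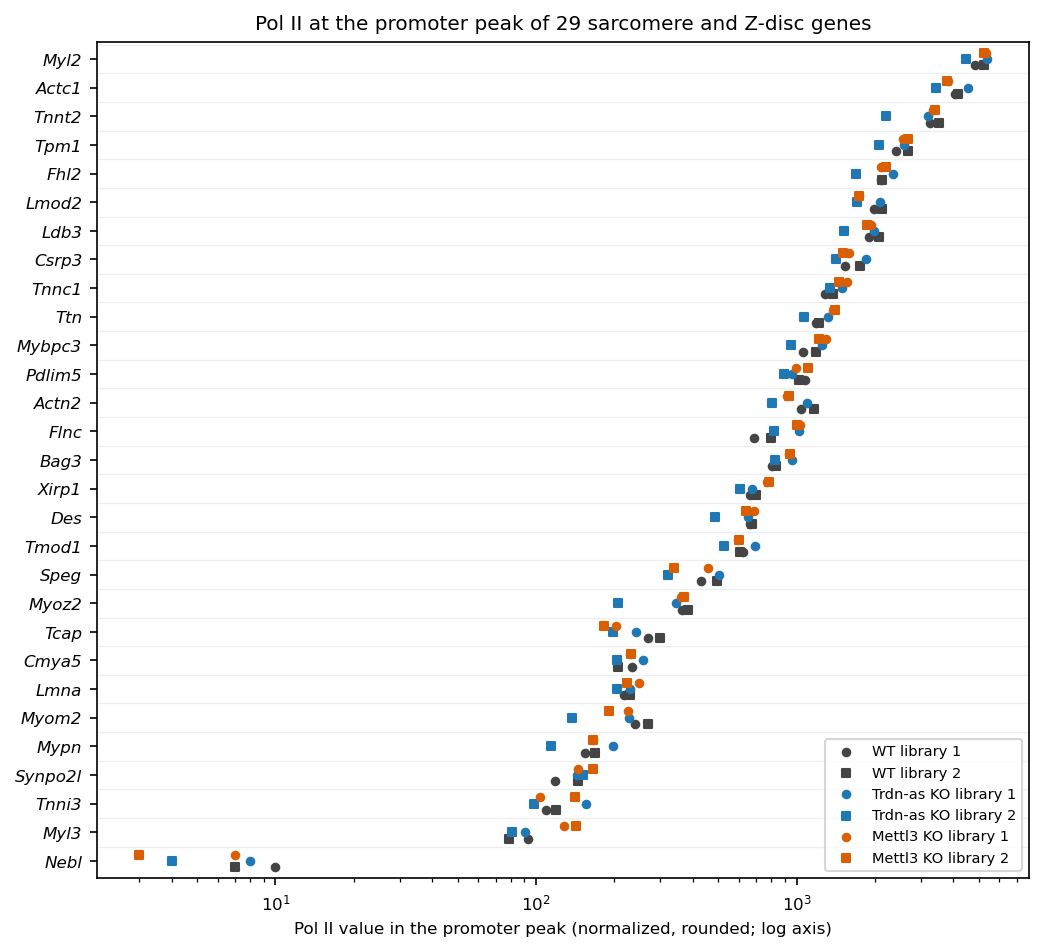
Pol II value (log axis) of each of the 6 Pol II libraries at the promoter peak of 29 genes, ordered by mean; circles and squares are libraries 1 and 2. The values run from 3 at Nebl to 5377 at Myl2, and the square of Trdn-as KO library 2 is the lowest of the 6 at many genes.

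Of the 7 genes of the thin filament, Actc1, cardiac alpha-actin, had values of 4063 and 4165 (WT), 4539 and 3429 (Trdn-as KO) and 3806 and 3776 (Mettl3 KO) (ENSMUSG00000068614, region chr2:113875567-113889208 in GRCm39, spanning the whole gene). The values of Mettl3 KO were under those of WT, and the Trdn-as KO libraries lay on either side of them. Tnnt2, troponin T, which ties the troponin complex to tropomyosin, had values of 3260 and 3522 (WT), 3203 and 2203 (Trdn-as KO) and 3326 and 3388 (Mettl3 KO). Both Trdn-as KO libraries of Tnnt2 were below those of the other genotypes, and the gap rests mostly on replicate 2. Tpm1, alpha-tropomyosin, had values of 2405 and 2668, 2592 and 2073, and 2554 and 2675 in the same order of genotypes, which overlap.

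Lmod2, leiomodin 2, which elongates thin filaments at their pointed ends, had values of 1979 and 2130 (WT), 2091 and 1704 (Trdn-as KO) and 1734 and 1740 (Mettl3 KO). Its Mettl3 KO libraries were close together and below both WT libraries. Tnnc1, the calcium-binding troponin C, had values of 1284 and 1379 (WT), 1495 and 1340 (Trdn-as KO) and 1564 and 1458 (Mettl3 KO), with both Mettl3 KO libraries above WT. Tmod1, the tropomodulin that caps the pointed end, had values of 622 and 606, 694 and 527, and 597 and 600. The Mettl3 KO libraries of Tmod1 were below WT by less than the distance between the Trdn-as KO libraries.

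Tnni3, the inhibitory troponin I of the adult heart, was represented by a minor region of 1324 nt upstream of the gene, with values of 109 and 119 (WT), 155 and 98 (Trdn-as KO) and 104 and 141 (Mettl3 KO). The region that covers the gene itself (chr7:4515139-4527871) is tied by the table to the neighbouring troponin gene Tnnt1. Its values were 2504 and 2723, 2832 and 2248, and 2348 and 2423, and the difference of Mettl3 KO from WT was -0.13 ± 0.11 (log2, SE; adjusted p = 0.578 in limma).

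Of the thick filament, titin and M-band genes, Myl2, the regulatory light chain of ventricular myosin, had the highest values of all the genes on the list, with 4859 and 5251 (WT), 5377 and 4467 (Trdn-as KO) and 5349 and 5258 (Mettl3 KO). Its 3 genotypes differed by less than the spread of the Trdn-as KO libraries. Ttn, which codes for titin, had values of 1186 and 1220 (WT), 1321 and 1069 (Trdn-as KO) and 1377 and 1407 (Mettl3 KO) (ENSMUSG00000051747, minus strand, region chr2:76809844-76814310 over the gene start). Both Mettl3 KO libraries of Ttn lay above all other libraries at the promoter. Mybpc3, cardiac myosin-binding protein C, also had both Mettl3 KO values above WT, with 1057 and 1186, 1254 and 955, and 1297 and 1215.

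Myl3, the essential light chain, had low values at a region of 1005 nt just inside the gene, with 93 and 79 (WT), 91 and 81 (Trdn-as KO) and 128 and 142 (Mettl3 KO). Both Mettl3 KO libraries were above the other 4, the highest log2 difference from WT on the list. This is a minor region that does not cover the gene start. The regions inside Myl3 summed to 1141 and 1221 (WT) and 1225 and 1225 (Mettl3 KO), a log2 difference of 0.05 ± 0.14. Speg, a striated muscle kinase of the myosin light chain kinase family, had values of 430 and 496, 506 and 322, and 457 and 339 at a region upstream of its start that overlaps the 3' end of Des. The region over the Speg start had values of 321 and 320, 322 and 281, and 281 and 299. Myom2, the M-band protein myomesin 2, had values of 240 and 268 (WT), 228 and 138 (Trdn-as KO) and 225 and 190 (Mettl3 KO).

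Of the 11 Z-disc genes, 10 were tested. Fhl2, a LIM-domain protein that binds titin, had values of 2109 and 2130 (WT), 2346 and 1686 (Trdn-as KO) and 2102 and 2199 (Mettl3 KO). Ldb3, also called ZASP or Cypher, which binds alpha-actinin, had values of 1893 and 2073, 1974 and 1527, and 1932 and 1866 (ENSMUSG00000021798, minus strand, region chr14:34302006-34312683). The WT and Mettl3 KO libraries of both genes were close together. Csrp3, muscle LIM protein, had values of 1531 and 1748, 1847 and 1417, and 1583 and 1505, which overlap across the genotypes.

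Actn2, alpha-actinin 2, the crosslinker of actin in the Z-disc, had values of 1036 and 1171 (WT), 1093 and 802 (Trdn-as KO) and 916 and 935 (Mettl3 KO). Tcap, telethonin, which caps titin in the Z-disc, had values of 268 and 300 (WT), 241 and 197 (Trdn-as KO) and 203 and 182 (Mettl3 KO) at a region upstream of the gene. The Mettl3 KO libraries of Actn2 and Tcap were below both WT libraries. Flnc, filamin C, an actin crosslinker at Z-disc and cell membrane, was the reverse, with 685 and 801 (WT), 1022 and 816 (Trdn-as KO) and 1034 and 1004 (Mettl3 KO).

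Pdlim5 had values of 1081 and 1018 (WT), 958 and 894 (Trdn-as KO) and 995 and 1106 (Mettl3 KO), and its product is a scaffold of the PDZ-LIM family like that of Ldb3. Myoz2, calsarcin 1, which ties calcineurin to the Z-disc, had values of 364 and 384, 346 and 206, and 361 and 370. In both genes the Trdn-as KO libraries lay below WT. Mypn, myopalladin, which links nebulin-like proteins to alpha-actinin, had values of 154 and 169, 197 and 114, and 165 and 166. Synpo2l, an actin-associated Z-disc protein, had the smallest mean of the Z-disc genes tested, with 118 and 145, 144 and 151, and 145 and 166.

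For the 5 tested genes of desmin, Xin proteins, chaperones and lamin, log2 differences of Trdn-as KO from WT ran from -0.25 to 0.12 and those of Mettl3 KO from -0.01 to 0.19. Des, desmin, had values of 663 and 674 (WT), 652 and 485 (Trdn-as KO) and 689 and 642 (Mettl3 KO). Bag3, a cochaperone that clears damaged filamin at the Z-disc, had values of 808 and 834, 958 and 829, and 932 and 941, with both Mettl3 KO libraries above WT. Xirp1, an actin-binding protein of the intercalated disc, showed the same with 665 and 698, 673 and 605, and 767 and 783. Cmya5 had values from 204 to 257 and Lmna, the nuclear lamin A/C gene, from 204 to 248 in the 6 libraries, with overlapping genotypes. For Cryab, the small heat shock protein alphaB-crystallin, the nearest region is tied to its head-to-head neighbour Hspb2 (chr9:50662455-50666602). It had values of 874 and 970 (WT), 1117 and 906 (Trdn-as KO) and 942 and 978 (Mettl3 KO). The next region, chr9:50666698-50669080, had 170 and 165, 243 and 234, and 139 and 110, and was higher in Trdn-as KO (log2 difference from Mettl3 KO 0.94 ± 0.21, adjusted p = 0.01 in limma).

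None of the 28 promoter peaks differed between genotypes at an adjusted p under 0.05, in limma on log2(value + 1) fitted to all 6 libraries and adjusted by Benjamini-Hochberg over 52655 regions. Between Trdn-as KO and WT 0 of 28 passed against 0.304% of all regions, in Mettl3 KO against WT 0 of 28 against 1.19%, and in Trdn-as KO against Mettl3 KO 0 of 28 against 1.5%. At an unadjusted p under 0.05 there were 4, 4 and 3 genes in these comparisons, against 7.7%, 15.5% and 17.9% of all regions. Standard errors of the 28 differences ran from 0.09 to 0.25, and fold changes on this scale understate those of low regions.

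Differences of Trdn-as KO from WT ran from -0.51 ± 0.21 (log2, SE) at Myom2 to 0.30 ± 0.14 at Flnc. The smallest adjusted p was 0.243 at Tnnt2, with a difference of -0.35 ± 0.11, and Myoz2 was the fourth gene with an unadjusted p under 0.05. The median difference was -0.08 against -0.07 over all regions, and 21 of 28 genes were below 0 against 57.6% of all regions. Without Trdn-as KO replicate 2 the medians turned to 0.11 and 0.08, and without replicate 1 they were -0.23 and -0.19. Both Trdn-as KO libraries lay below both WT libraries in 6 genes (19.1% of all regions) and above them in 1, Flnc (12.9%). Without Trdn-as KO replicate 1, which leaves the shallow replicate 2 alone in its group, 11 of 28 genes were called lower against 3.57% of all regions. Without replicate 2, none was called.

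In Mettl3 KO against WT the differences ran from -0.56 ± 0.20 at Tcap to 0.65 ± 0.25 at Myl3. The smallest adjusted p was 0.0768, at Flnc with 0.46 ± 0.14, and Lmod2 with -0.24 ± 0.11 was the other gene with an unadjusted p under 0.05 besides Tcap and Myl3. The median was 0.03 against 0.08 over all regions, and 12 of 28 genes were below 0 against 44.8% of regions. In 6 genes both libraries of Mettl3 KO were under both of WT (19.5% of all regions), and in 8 they were above (31.2%).

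**Figure D2:**
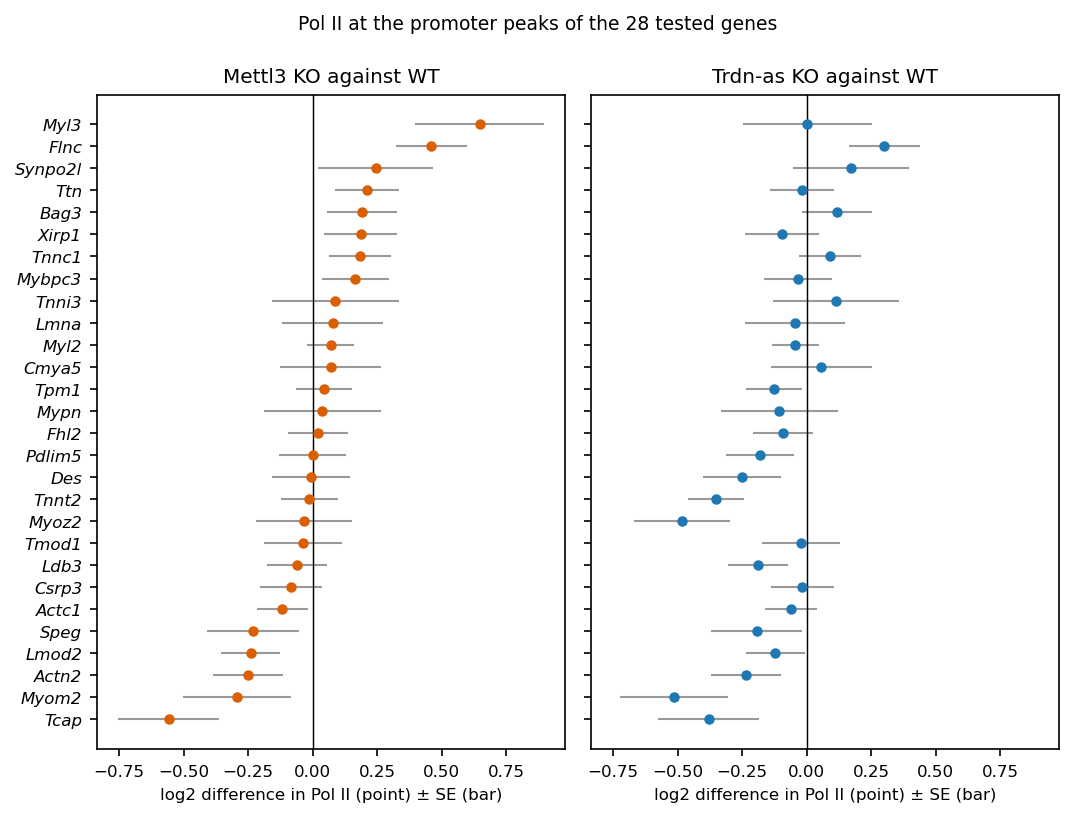
Log2 difference in Pol II at the promoter peak, with its SE, of 28 genes in Mettl3 KO (left) and Trdn-as KO (right) against WT, 2 libraries per genotype. In Mettl3 KO the points run from -0.56 at Tcap to 0.65 at Myl3, and no gene in either panel had an adjusted p under 0.05.

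The count in Mettl3 KO against WT differed between settings. When only WT and Mettl3 KO libraries entered the fit, 9 genes were called, 5 of them higher (Ttn, Tnnc1, Myl3, Flnc and Bag3) against 7.74% of all regions and 4 lower (Actc1, Actn2, Tcap and Lmod2) against 1.49%. Leaving out either Trdn-as KO library did not move the medians, which stayed at 0.03 over the 28 genes and 0.08 over all regions. When the libraries were scaled to equal total signal, which moved the median of all regions from 0.08 to -0.08, Flnc was called higher (1.52% of all regions) and 10 genes lower (2.78%), among them Tcap with -0.73, Actn2 with -0.42 and Lmod2 with -0.41. Tcap, Actn2, Lmod2 and Actc1 were the genes called lower, and Flnc the gene called higher, under both settings.

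Between the knockouts, Trdn-as KO minus Mettl3 KO differences ran from -0.64 at Myl3 to 0.18 at Tcap, with a median of -0.12 against -0.16 over all regions, which became 0.03 against -0.02 without Trdn-as KO replicate 2. The smallest adjusted p was 0.0942, at Tnnt2 with -0.34, and 20 of 28 genes were below 0 against 60.5% of regions. Both Trdn-as KO libraries were below both Mettl3 KO libraries in 6 genes (29.9% of all regions) and above them in 0 (13.9%). Without Trdn-as KO replicate 1, 15 genes were called lower against 17.6% of all regions, while without replicate 2 there was 1 call, a higher one. These comparisons share libraries, so that their values are not independent of each other.

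The 29 genes had 93 annotated promoter peaks, and some peaks other than the one with the most Pol II passed the test. Of 74 that were tested, 3 were called in Trdn-as KO against WT (0.304% of all regions). They were a region 4.57 kb inside Myoz2 with values of 41 and 41 (WT), 17 and 2 (Trdn-as KO) and 18 and 22 (Mettl3 KO) (-2.51 ± 0.52, adjusted p = 0.00734 in limma), one 4.69 kb inside Pdlim5 with 116 and 111, 44 and 55, and 61 and 66 (-1.19 ± 0.28, adjusted p = 0.0296), and one inside Myom2 with 56 and 87, 38 and 14, and 44 and 58 (-1.55 ± 0.35, adjusted p = 0.0242). At Myoz2 and Pdlim5 the Mettl3 KO values were also under both WT values, without a call. Between the knockouts 2 passed (1.5% of all regions). The region over the start of Myom2 had 112 and 125 (WT), 112 and 57 (Trdn-as KO) and 179 and 190 (Mettl3 KO) (-1.20 ± 0.25, adjusted p = 0.00421), and a region inside Des had 35 and 32, 42 and 39, and 24 and 8 (1.47 ± 0.41, adjusted p = 0.0486). None of the 74 was called in Mettl3 KO against WT.

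At Tcap the region over the gene itself (chr11:98273797-98281011) is tied by the table to its neighbour Pnmt, and covers all of Tcap. It had values of 2713 and 2804 (WT), 2946 and 2455 (Trdn-as KO) and 2130 and 2058 (Mettl3 KO). Pol II there fell by 0.40 ± 0.11 on the log2 scale in Mettl3 KO against WT (adjusted p = 0.041 in limma), with both Mettl3 KO libraries below the other 4, and reads of Tcap and of Pnmt cannot be told apart in it. In Trdn-as KO against WT the difference was -0.04 ± 0.11.

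Beyond the promoter, Pol II on the gene was followed as the sum of the regions inside the gene that the table ties to no promoter. Such regions were found in 21 of the 32 genes and 20 passed the filter, in a fit over 5057 genes. Pol II inside the gene was lower in Mettl3 KO than in WT hearts for 3 of the 20 genes, Ttn, Mypn and Ldb3, and higher in 0, against 2.45% of all genes called in either direction and 1.32% called lower. No gene was called in Trdn-as KO against WT (0.395% of all genes) or in Trdn-as KO against Mettl3 KO (1.58%), where 5 and 4 genes had an unadjusted p under 0.05 (9.61% and 14.5% of all genes).

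Inside Ttn, 82 regions summed to Pol II values of 1237 and 1517 (WT), 1357 and 933 (Trdn-as KO) and 826 and 788 (Mettl3 KO). Pol II inside Ttn fell by 0.76 ± 0.15 on the log2 scale in Mettl3 KO against WT (adjusted p = 0.0013 in limma), and both Mettl3 KO libraries were below the other 4. This stands against the promoter of Ttn, where both Mettl3 KO libraries were the highest of the 6. Inside Ldb3, 32 regions summed to 3562 and 3878 (WT), 3855 and 3018 (Trdn-as KO) and 2790 and 2568 (Mettl3 KO), and Pol II fell by 0.47 ± 0.13 in Mettl3 KO against WT (adjusted p = 0.0282). Inside Mypn, 10 regions summed to 148 and 185, 157 and 151, and 116 and 70, and Pol II fell by 0.87 ± 0.22 in Mettl3 KO against WT (adjusted p = 0.0169). In all 3 genes the Mettl3 KO libraries did not overlap with either of the other genotypes. Against Trdn-as KO the differences of Mypn and Ttn had adjusted p values of 0.0505 and 0.0764. The 3 calls against WT were lost, with the direction kept, when any 1 WT or Mettl3 KO library was left out and when libraries were scaled to uniquely mapped reads, while with equal total signal, which moved the median of all genes from -0.03 to -0.19, 9 of the 20 genes were called lower against 7.81% of all genes.

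**Figure D3:**
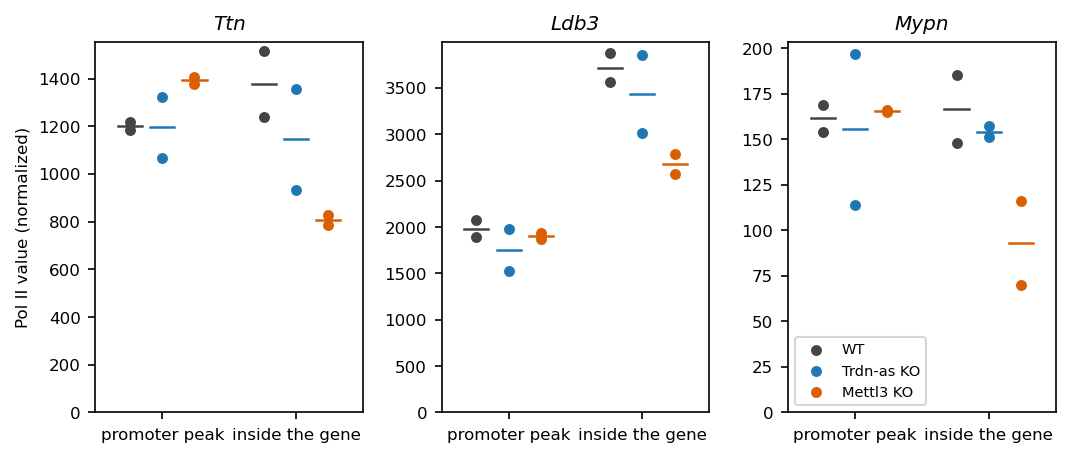
Pol II value of each library (points) and the mean of 2 libraries (lines) at the promoter peak and summed over the regions inside Ttn, Ldb3 and Mypn, by genotype. Inside the gene the 2 Mettl3 KO points lie below all others, from 788 to 826 in Ttn, which the promoter values do not show.

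The regions inside these genes stood above IgG. In WT the Pol II signal in RPM was 6.83 times the IgG signal in Ttn, 14.5 times in Ldb3 and 5.27 times in Mypn, with a median of 6.71 over the 20 genes that passed the filter and 3.29 over the 5030 of all 5057 genes with IgG above 0. In Mettl3 KO the ratios were 3.06, 7.98 and 2.12, and in Trdn-as KO 3.30, 7.66 and 2.17, with medians over all genes of 2.65 and 2.23, so that Mypn lay below the median of all genes in both knockouts. The ratios of Trdn-as KO rest on a Pol II library with a low share of reads in the regions, and each genotype has 1 IgG library.

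Most of the other genes had values in the same direction without passing the test. The median difference of Mettl3 KO from WT over the 20 genes was -0.34 against -0.03 over all genes, and 16 of 20 were below 0 against 52.5% of all genes. In 13 of the 20 both libraries of Mettl3 KO were under both of WT (23.7% of all genes), and in 2, Lmna and Myl3, above (21.9%). Bag3, for example, had 133 and 163 (WT), 126 and 92 (Trdn-as KO) and 106 and 97 (Mettl3 KO), and Tpm1 had 454 and 549, 464 and 318, and 348 and 371. Values were 1108 and 1203, 1317 and 1109, and 1292 and 1210 for Lmna and 1141 and 1221, 1137 and 871, and 1225 and 1225 for Myl3. In Trdn-as KO against WT 18 of 20 were below 0 against 54.3% of all genes. The median of Trdn-as KO minus WT was -0.24 against -0.04 over all genes, and it was 0.02 without Trdn-as KO replicate 2.

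**Figure D4:**
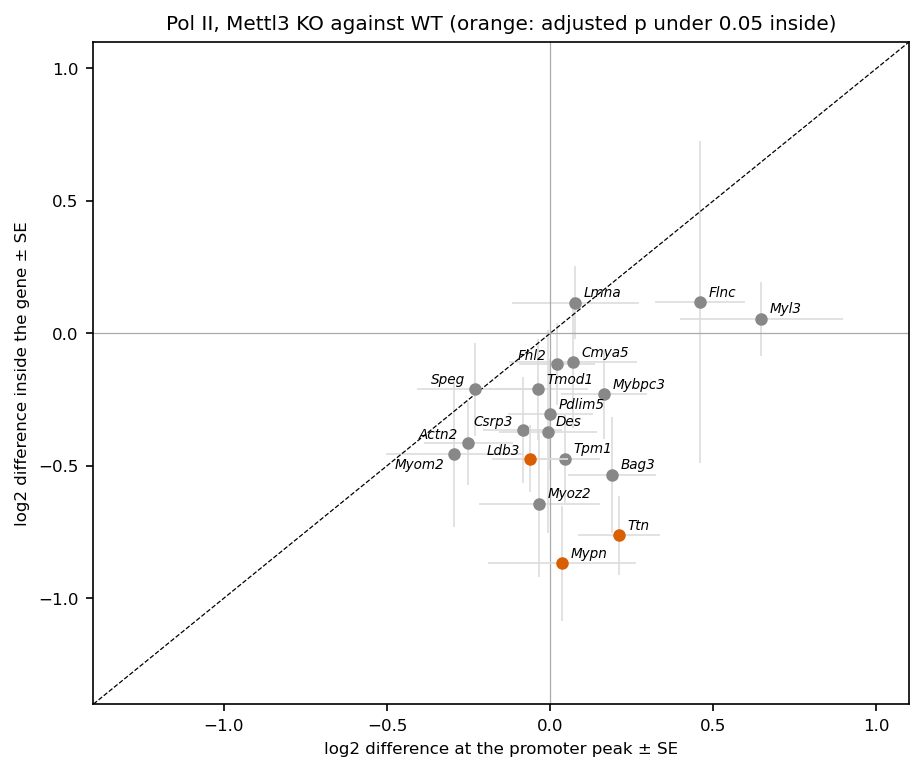
Log2 difference in Pol II of Mettl3 KO against WT at the promoter peak (horizontal) and inside the gene (vertical), with SE, for the genes tested in both; the dashed line marks equal differences. The 3 genes called inside (orange) lie below the line, with Ttn at 0.21 and -0.76.

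The ratio of Pol II inside the gene to Pol II at its promoter does not depend on the scale of a library. For Ttn it was 1.04 and 1.24 (WT), 1.03 and 0.873 (Trdn-as KO) and 0.600 and 0.560 (Mettl3 KO). The log2 ratio of Ttn fell by 0.97 ± 0.16 in Mettl3 KO against WT (adjusted p = 0.0318 in limma over 4692 genes), the only call among 19 genes, against 0.32% of all genes. This call was lost without the variance trend and when any 1 WT or Mettl3 KO library was left out. The median of the 19 genes was -0.34 and that of all genes -0.29, so that most of the shift in the ratio was shared by genes outside the list. For Trdn-as KO, 0 of 19 were called against WT (0.0426% of all genes) and in Trdn-as KO against Mettl3 KO 0 of 19 (0.107%), with 1 and 3 genes at an unadjusted p under 0.05 (7.05% and 15.0% of all genes).

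Single regions placed the differences along the genes. Of 232 regions tested that lie in or overlap 20 genes, 6 were lower in Mettl3 KO than in WT (0.482% of all regions) and 0 higher (0.712%). A difference below 0 was seen in 175, against 44.8% of all regions. These 20 genes include Tnnt2 and not Flnc, unlike the 20 genes with summed values. In Trdn-as KO against WT 165 of the 232 were below 0 against 57.6% of all regions. All regions here include promoters and regions outside genes. For Pol II summed inside genes, 52.5% of all genes were below 0 in Mettl3 KO against WT and 54.3% in Trdn-as KO against WT. Of the 232 regions, 41 were in Ttn and 47 in Fhl2. In Ttn 3 of 41 regions were lower, and 37 of 41 had a difference below 0, as 32 of 41 had in Trdn-as KO against WT. The one 175 kb from the start (chr2:76637360-76638076) had values of 91 and 79 (WT), 89 and 61 (Trdn-as KO) and 31 and 37 (Mettl3 KO) (-1.30 ± 0.30, adjusted p = 0.0125 in limma). The others, 99.3 kb and 96.3 kb from the start, had 37 and 33 in WT against 12 and 6 in Mettl3 KO, and 27 and 35 against 11 and 5. They lie far inside a gene of 278568 bp, and their values are near the filter.

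In Ldb3 the difference sat in 1 broad region of 12026 nt that starts 12.3 kb from the gene start (chr14:34286302-34298327). It had values of 2659 and 2772 (WT), 2870 and 2262 (Trdn-as KO) and 1819 and 1580 (Mettl3 KO), and Pol II fell by 0.68 ± 0.11 against WT (adjusted p = 0.00014 in limma). Trdn-as KO was higher than Mettl3 KO in the same region by 0.59 ± 0.11 (adjusted p = 0.00106). Farther downstream the order turned. The Ldb3 region 47.3 kb from the start had 72 and 71 (WT), 92 and 43 (Trdn-as KO) and 128 and 146 (Mettl3 KO), with a difference of Trdn-as KO from Mettl3 KO of -1.11 ± 0.28 (log2; adjusted p = 0.0251). A smaller region 35.0 kb from the start was called in the same direction, so that Ldb3 held regions that differed both ways between the knockouts.

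In Mypn 2 of 4 regions tested were lower in Mettl3 KO than in WT, both about the middle of the gene. The region chr10:62993798-62994525 had values of 54 and 63 (WT), 55 and 47 (Trdn-as KO) and 27 and 10 (Mettl3 KO) (-1.76 ± 0.37, adjusted p = 0.00453 in limma). Its neighbour had 34 and 58, 39 and 43, and 17 and 14 (-1.47 ± 0.38, adjusted p = 0.0325). Both were also called between the knockouts. In Trdn-as KO against WT 1 region of the 232 was called (0.304% of all regions), in Tnnt2 (chr1:135777655-135787041, at the 3' end of the gene and beyond it), with 1294 and 1491 (WT), 1084 and 839 (Trdn-as KO) and 1282 and 1322 (Mettl3 KO) (-0.54 ± 0.13, adjusted p = 0.0347).

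**Figure D5:**
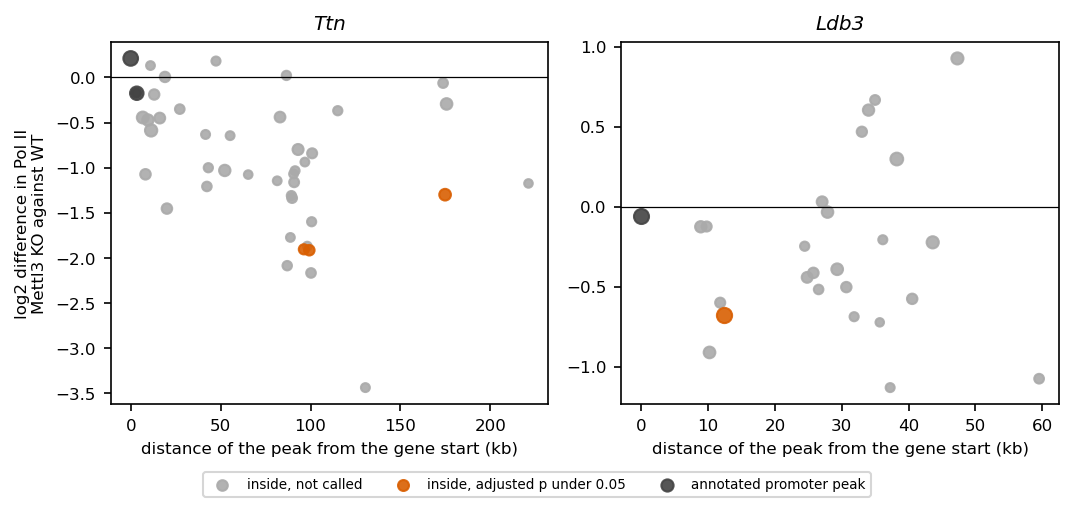
Log2 difference in Pol II of Mettl3 KO against WT for each region tested in Ttn (left) and Ldb3 (right) against its distance from the gene start in kb; larger points have a higher mean value. In Ttn 37 of 41 regions inside lie below 0, and in Ldb3 the called region is 12.3 kb from the start.

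Other sarcomere genes gave a frame for these values. In 4 further lists with 57 genes of myosins, Z-disc and titin-linked proteins, costamere and assembly chaperones, 48 were tested for Pol II at the promoter. In Mettl3 KO against WT 1 of them was lower and 0 higher, against 1.19% of all regions called. This was Myh7, the slow beta-myosin heavy chain, with 4531 and 4807 (WT), 4451 and 3581 (Trdn-as KO) and 2586 and 2617 (Mettl3 KO) (-0.84 ± 0.10, adjusted p = 3.65e-08 in limma). Between Trdn-as KO and WT 2 were lower (0.304% of all regions called), Myh6, the alpha-myosin heavy chain of the adult mouse heart, with 10654 and 11527, 9901 and 7625, and 11283 and 11566 (-0.35 ± 0.08, adjusted p = 0.0291), and Ankrd1, a titin-binding stress protein, with 765 and 898, 607 and 419, and 879 and 882 (-0.72 ± 0.15, adjusted p = 0.00861). Between the knockouts Myh7 was called higher, and Myh6 and Ankrd1 lower, in Trdn-as KO (1.5% of all regions called). Of 32 calls followed through the alternatives, which cover the genes and single regions named here, 0 kept an adjusted p under 0.05 when any 1 WT or Mettl3 KO library was left out, and 0 changed direction. All 32 were also lost without the variance trend, 28 of 28 without the filter on low values and 26 of 29 with libraries scaled to uniquely mapped reads.

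Of the markers of other heart cells, the calls were in the fibroblast list. Of 8 fibroblast genes, 8 were tested and 0 were at 0 in every library, and 5 were higher in Mettl3 KO than in WT (Col1a1, Col1a2, Col3a1, Pdgfra and Tcf21, named after their values were seen), against 0.712% of all regions. Between the knockouts 5 were lower in Trdn-as KO (Col1a1, Col1a2, Col3a1, Pdgfra and Postn, also named after their values were seen) against 1.5% of all regions called, and in Trdn-as KO against WT 0 of 8 were called (0.304%), with 1 at an unadjusted p under 0.05 in limma. The summed Pol II value of the list was 928 and 991 (WT), 1400 and 990 (Trdn-as KO) and 1944 and 1942 (Mettl3 KO). The summed values ran from 1029 to 1416 for the 6 of 7 endothelial genes with a promoter peak, from 162 to 212 for 5 of 7 leukocyte genes, from 365 to 564 for 5 of 5 smooth muscle genes and from 362 to 530 for 6 of 8 skeletal muscle genes, with 0 calls in the 3 comparisons among the 6, 5, 5 and 4 of these genes that were tested in limma. Of all regions 1.19% were called in Mettl3 KO against WT, 0.304% in Trdn-as KO against WT and 1.5% between the knockouts. At an unadjusted p under 0.05 in limma there were 2 endothelial genes in Mettl3 KO against WT (15.5% of all regions). There was 1 leukocyte gene in Trdn-as KO against WT (7.7%), and 2 skeletal and 1 smooth muscle gene between the knockouts (17.9%). The part of the fibroblast signal in the Pol II differences of Ttn, Ldb3, Mypn and Tcap between Mettl3 KO and WT was not tested. The 29 promoter peaks together held 0.733% and 0.763% of all Pol II signal in the WT libraries, 0.742% and 0.705% of that of Trdn-as KO, and 0.672% and 0.675% of that of Mettl3 KO.

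The promoter peaks of these genes took up a smaller share of the CTCF signal than of the IgG signal in all genotypes. Together they held 0.123% to 0.140% of the CTCF signal per library and 0.234% to 0.264% of the IgG signal. The median over 28 genes of the CTCF share divided by the IgG share was 0.497, against 0.690 over all genes. It ran from 0.266 at Actc1 to 1.23 at Tmod1, and was above 1 only in Tmod1 and Tnni3 among the 28, against 24.2% of all genes. These are shares of the signal within the regions, and CTCF and IgG were not compared per mapped read. Among all 93 promoter peaks 9 were above 1, the highest being upstream regions of Mybpc3 with 2.17 and Xirp1 with 2.11.

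CTCF at the 28 promoter peaks did not pass the test in any comparison. The calls were 0 of 28 in Trdn-as KO against WT (0.587% of 60649 regions), 0 of 28 in Mettl3 KO against WT (0.185%) and 0 of 28 in Trdn-as KO against Mettl3 KO (1.37%), and 2, 4 and 5 genes had an unadjusted p under 0.05 (10.2%, 15.7% and 18.8% of all regions). The smallest adjusted p values in limma were 0.330 at Fhl2, 0.177 at Tpm1 and 0.114 at Synpo2l. Among the other sarcomere lists 1 of 46 genes was higher in Mettl3 KO than in WT, Myh6, with CTCF values of 299 and 289 (WT), 340 and 322 (Trdn-as KO) and 455 and 480 (Mettl3 KO) (0.67 ± 0.06, adjusted p = 6.85e-05 in limma), against 0.185% of all regions called. Between the knockouts Myh6 was lower in Trdn-as KO (-0.50 ± 0.06, adjusted p = 0.000148) and 1 other gene of the 46 was higher, Tmod4, named after its values were seen, against 1.37% of all regions called. In Trdn-as KO against WT 0 of 46 were called for CTCF (0.587%), with 7 at an unadjusted p under 0.05 in limma. The IgG values of the same Myh6 region were 1003, 1057 and 1354 in WT, Trdn-as KO and Mettl3 KO, with 1 library each. The MerCreMer transgene of the Mettl3 KO hearts is driven by the alphaMHC promoter, which is that of Myh6. Whether reads of the transgene fall in this region, for CTCF, Pol II or IgG, was not tested.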

How the data were processed

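Chromatin of mouse ventricles was immunoprecipitated for Pol II, CTCF or IgG, and 15 libraries of 3 genotypes were analysed. The 3 input libraries are not analysed here. According to the methods and the submitters' processing notes, the authors used Trimmomatic 0.39 for trimming, STAR 2.7.11b for alignment to GRCm39, removed duplicates with Picard 3.1.1, called and merged peaks with MACS, counted reads with featureCounts and normalised with DESeq2 1.36.0. The deposited values are this normalised signal in 1 table, rounded to whole numbers. Each region is tied to at most 1 gene, as promoter where it lies near that gene's start, so that regions of neighbouring genes can carry another gene's name.

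Genotypes were compared per target with limma 3.58.1 (R 4.3.3) on log2(value + 1), with a variance trend, in the regions that reached 10 in 2 or more of the 6 libraries, and with Benjamini-Hochberg adjustment at 0.05. A count test was not used because the values are not counts. The script was tested on simulated data. Pol II and IgG reads were estimated from the spacing of the values, and for CTCF this spacing could not be settled, so that CTCF was compared with IgG only as a share of each library's signal. With 2 libraries per group small differences cannot be resolved.

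All 32 genes were to be named, and of the other lists the sarcomere genes that passed in a Pol II comparison. The genes and lists were chosen with earlier results of these data known. The single regions inside genes were named because they passed the test. Sums of all promoter peaks, other scalings, pseudocounts and fits, and the libraries left out in turn were tried as alternatives. The regions over the gene start were added after seeing the data. Promoter sequences came from RefSeq (GRCm38.p6), whose coordinates were not compared with the GRCm39 regions. Python 3.11.15, pandas 2.3.3, numpy 2.4.6 and matplotlib 3.10.9 were used.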

Additional observations from a re-analysis of the deposited data

How the results depend on the processing

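The count of promoter peaks called for Pol II was 0 in each comparison. In Trdn-as KO against WT it became 2 with equal total signal, against 143 higher and 253 lower of 52655 regions. It became 1 with the sum of all promoter peaks (Myom2), against 48 higher and 126 lower of 45785 genes and regions. In Mettl3 KO against WT it became 11 with equal total signal (800 of all regions higher and 1463 lower). It became 9 with only the 2 compared genotypes (4078 and 783) and 1 with the peak over the gene start (Tcap, 1.19% of all regions called). In Trdn-as KO against Mettl3 KO it became 5 with equal total signal (921 and 574) and 1 with a pseudocount of 10 (Tnnt2, 276 and 1018). It was also 1 with the sum of promoter peaks (191 and 656) and with the peak over the gene start (1.5% of all regions called), both Myom2. Leaving out 1 library at a time gave 0 to 11, 0 to 9 and 0 to 15 calls in these comparisons. For CTCF the count stayed at 0 except for 1 (Fhl2) in Trdn-as KO against Mettl3 KO with equal total signal. In that fit 496 of 60649 regions were higher and 700 lower. Scaling to uniquely mapped reads moved the median of all regions to -0.65 in Trdn-as KO against WT, -0.06 in Mettl3 KO against WT and -0.59 between the knockouts, and was not run for CTCF.

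Inside the gene, the 3 calls of Mettl3 KO against WT became 0 with uniquely mapped reads or without the variance trend, 9 with equal total signal, and 0 to 3 without 1 library, with 0 whenever a WT or Mettl3 KO library was left out. With equal total signal 67 of all 5057 genes were higher and 395 lower in Mettl3 KO against WT. Trdn-as KO against Mettl3 KO had 1 call with a pseudocount of 10 (Mypn), where 40 genes were higher and 80 lower. It had 4 with equal total signal, where 280 were higher and 45 lower. Its median over the 20 genes was 0.07, and it was -0.13 without Trdn-as KO replicate 1 and 0.28 without replicate 2. In Trdn-as KO against WT the median was -0.24, -0.48 and 0.02 in the same order. For the ratio of inside to promoter, the call of Ttn in Mettl3 KO against WT was lost without the variance trend. It was also lost whenever a WT or Mettl3 KO library was left out. Between the knockouts 1 gene (Ttn) was called with a pseudocount of 10, where 38 of 4692 genes were higher and 19 lower. The cause of these changes was not tested.

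The replicate numbers pair no hearts in the labels. Deviations of same-numbered Pol II libraries correlated at -0.01 to 0.00 between genotypes, and those of CTCF at -0.24 for WT and Trdn-as KO and within 0.01 of 0 otherwise. With the number as a replicate block, the promoter counts stayed at 0, inside calls in Mettl3 KO against WT were 2 (Ttn and Mypn) and in Trdn-as KO against Mettl3 KO 1 (Mypn). Of 412 recomputations of 32 called single values, 148 kept direction and call, 264 kept the direction only and 0 reversed. Depth was lowest, as a share of reads in regions, in Trdn-as KO replicate 2.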
